A study of Mus musculus with 10 samples.

Results

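St6galnac1, BC018473 and Gm11735 are 3 adjoining genes of mouse chromosome 11, and they make up 3 of the 54532 genes in the deposited table of spleen RNA. The 3 genes were chosen by their measured values in this same contrast: their RNA was present in 4 of 5 spleens of DUSP6 knockout (KO) mice and at or near 0 in 1 KO spleen and in the wild-type (WT) spleens. Their levels are therefore given as a description, with no test. Tests are given for genes that the choice did not use, namely the genes on both sides of the run, the genes of sialic acid biology and epithelial markers. The lists of these genes were, however, also set with earlier results of these data known. Genes picked for their likeness to the run are described with no test.

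St6galnac1 encodes a sialyltransferase of the Golgi. It adds sialic acid in α2,6 linkage to the first sugar of mucin-type O-glycans, a step that makes the sialyl-Tn antigen and stops further growth of the chain. The enzyme is best known from goblet cells of the gut, which use it on secreted mucins. Mucin-type O-glycans start with an N-acetylgalactosamine that GALNT enzymes place on serine or threonine, and other transferases extend them or cap them with sialic acid. Lectins of the Siglec family on leukocytes, B cells and splenic macrophages among them, bind sialic acid caps. BC018473 is an RNA with no assigned function, which the annotation classes as antisense, and Gm11735 is classed as an unprocessed pseudogene, a duplicated gene copy that kept its exon structure.

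In KRN serum-induced arthritis (KSIA), the disease is transferred with serum of arthritic KRN x NOD F1 mice, and the spleens studied here were collected on day 9. Both groups received 100 µL of pooled serum into the peritoneum on days 0 and 2. The groups were 5 DUSP6 KO mice (Dusp6tm1Jmol, called a knockdown in the sample labels) and 5 WT mice (C57BL/6J), 8 to 12 weeks old and bought from the Jackson Laboratories, with 1 RNA library per spleen. The deletion was in the whole animal, and the genetic background of the KO line and whether any mice were littermates are not given in the sources used here, so the deletion cannot be told apart from other differences between the mouse lines.

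Libraries held 14990474 to 19822673 reads assigned to genes, as recovered from the deposited values. Dusp6 was at 0.308 to 0.624 FPKM (fragments scaled to gene length and to a depth value of each library) in the 5 KO libraries. It was at 16.6 to 24.0 FPKM in the 5 WT libraries, and KO replicate 01, at 0.383 FPKM, lay within the KO range. The depth value was not the sum of recovered reads: in KO replicate 73 it was 14652374, against 15434643 reads. Male and female mice received serum, and all 10 libraries had Xist at 0.0206 FPKM or less and Ddx3y at 14.4 FPKM or more, the pattern of male tissue. All 12 spleen markers, of B cells, T cells, red pulp macrophages, myeloid and erythroid cells, were expressed in every library, with a sum of 931 to 1194 FPKM in KO and 1034 to 1219 FPKM in WT. WT replicates 67 and 65 stood apart, with 12 exocrine pancreas markers summing to 18760 and 236 FPKM against 9.55 to 26.2 FPKM in the other 8 libraries. WT replicate 67 also had 14 epithelial and goblet cell markers summing to 321 FPKM against 4.49 to 8.82 FPKM. Of that sum, 312 FPKM came from Zg16, a gene of pancreas as well as goblet cells, at 0.737 to 4.47 FPKM in the other libraries.

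The run lies within 36.4 kb on GRCm38. Gm11735 (ENSMUSG00000078586) occupies chr11:116739062-116749833 on the minus strand. BC018473 (ENSMUSG00000056032) follows after a gap of 2333 bases, at chr11:116752167-116759373 on the plus strand. St6galnac1 (ENSMUSG00000009588) follows after a further 5651 bases, at chr11:116765025-116775507 on the minus strand. None of the 3 overlaps another gene of the table on either strand.

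Gm11735 is a near-complete copy of the coding part of St6galnac1, which bears on how their reads can be divided. Its 1581 bases aligned without a gap to bases 106 to 1686 of the 2392-base St6galnac1 transcript, with 32 mismatches and an identity of 98.0%. Both have 9 exons, and exons 2 to 8 have the same length in both (7 of 7). St6galnac1 alone has 105 bases upstream and 706 bases downstream of the shared part. No further transcript of the annotation matched either of them over 100 bases at 90% identity. The stretch with the most mismatches crosses from exon 1 into exon 2 of both genes, at bases 168 to 287 of the St6galnac1 transcript and 63 to 182 of Gm11735, and is shown because its 11 mismatches, in capitals, can tell the transcripts apart.
St6galnac1: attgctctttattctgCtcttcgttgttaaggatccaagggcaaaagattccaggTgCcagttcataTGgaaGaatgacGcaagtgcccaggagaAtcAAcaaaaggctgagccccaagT
Gm11735: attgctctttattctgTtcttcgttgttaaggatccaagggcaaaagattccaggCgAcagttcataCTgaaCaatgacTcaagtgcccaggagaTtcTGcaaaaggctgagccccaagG

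The longest stretch with no mismatch runs for 402 bases, from base 417 to base 818 of Gm11735. Its first 120 bases, within exon 2 of both genes, are shown as an example of sequence from which a short read cannot be assigned to 1 of them.
Shared: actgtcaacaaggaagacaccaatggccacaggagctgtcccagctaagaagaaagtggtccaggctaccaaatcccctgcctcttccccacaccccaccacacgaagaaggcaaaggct

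Read in the frame of St6galnac1, which has 526 codons and a stop, Gm11735 has its first stop at codon 368 of 527. Over the aligned codons 18 encode another amino acid, the early stop included. The 63 bases around that codon are printed with the codon in capitals; they run from exon 5 into exon 6 in both genes, at bases 1177 to 1239 of St6galnac1 and 1072 to 1134 of Gm11735.
St6galnac1: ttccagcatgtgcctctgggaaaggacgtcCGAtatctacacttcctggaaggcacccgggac
Gm11735: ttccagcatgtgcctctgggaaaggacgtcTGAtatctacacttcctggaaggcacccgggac

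**Figure D1:**
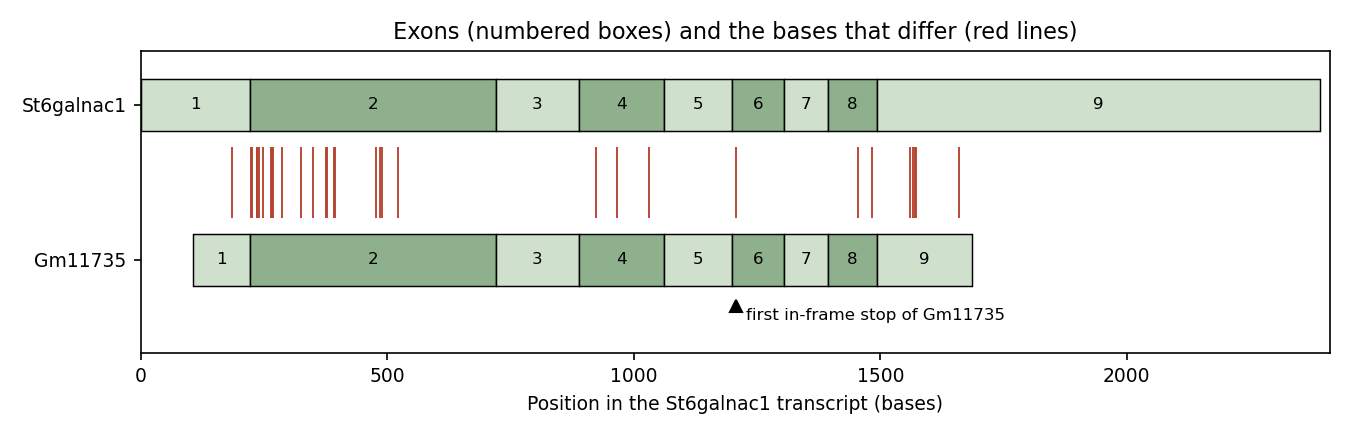
Exons of St6galnac1 and Gm11735 drawn along the St6galnac1 transcript in bases, with the 32 mismatched bases as red lines and the first in-frame stop of Gm11735 as a triangle. Exon 2 holds 20 of the mismatches, exon 9 holds 5 and exon 1 holds 1, and 402 bases in the middle hold none.

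BC018473 was the most abundant of the 3 per length of gene. It was at 13.9, 8.07, 5.30, 0 and 7.99 FPKM in KO replicates 26, 21, 73, 01 and 03, which correspond to 1424, 858, 425, 0 and 725 reads. All 5 WT libraries were at 0 reads. KO replicate 01 thus matched the WT libraries, and the other KO libraries lay far above all of them. The KO mean was 7.06 ± 5.06 FPKM (SD, n = 5). Set against a floor of 3 reads per WT library, a mean of 0.0312 FPKM, it was at least 226-fold higher.

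St6galnac1 was at 1.84, 2.58, 1.77, 0.0772 and 2.47 FPKM in the same order of KO replicates, from 82, 120, 62, 4 and 98 reads. WT replicates 65, 67, 73, 77 and 83 had 0.147, 0, 0, 0.176 and 0 FPKM, from 6, 0, 0, 7 and 0 reads. The 4 high KO libraries did not overlap any other library, while KO replicate 01 lay between the WT libraries. The KO mean was 1.75 ± 1.0 FPKM (SD, n = 5) and the WT mean 0.0645 ± 0.0890 FPKM (SD, n = 5), a ratio of 27.1. All 13 WT reads came from 2 spleens, and the WT mean lay below the level of 3 reads per library, 0.0714 FPKM. With single libraries left out the ratio ran from 21.6 to 47.6, the highest without WT replicate 77 and 39.7 without WT replicate 65. In bulk spleen, fewer cells that express a gene and less RNA per cell cannot be told apart.

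Gm11735 was at 1.53, 2.08, 0.734, 0 and 0.724 FPKM in KO replicates 26, 21, 73, 01 and 03, from 45, 64, 17, 0 and 19 reads, and at 0 reads in the 5 WT libraries. It was the lowest of the 3 in each of the 4 expressing spleens, at 0.293 to 0.830 of the St6galnac1 level per length. The KO mean was 1.01 ± 0.805 FPKM (SD, n = 5). Against 3 reads per WT library, a mean of 0.108 FPKM, it was at least 9.37-fold higher. Every one of these reads falls in a gene that matches St6galnac1 closely, so the split of reads between the pair is uncertain.

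**Figure D2:**
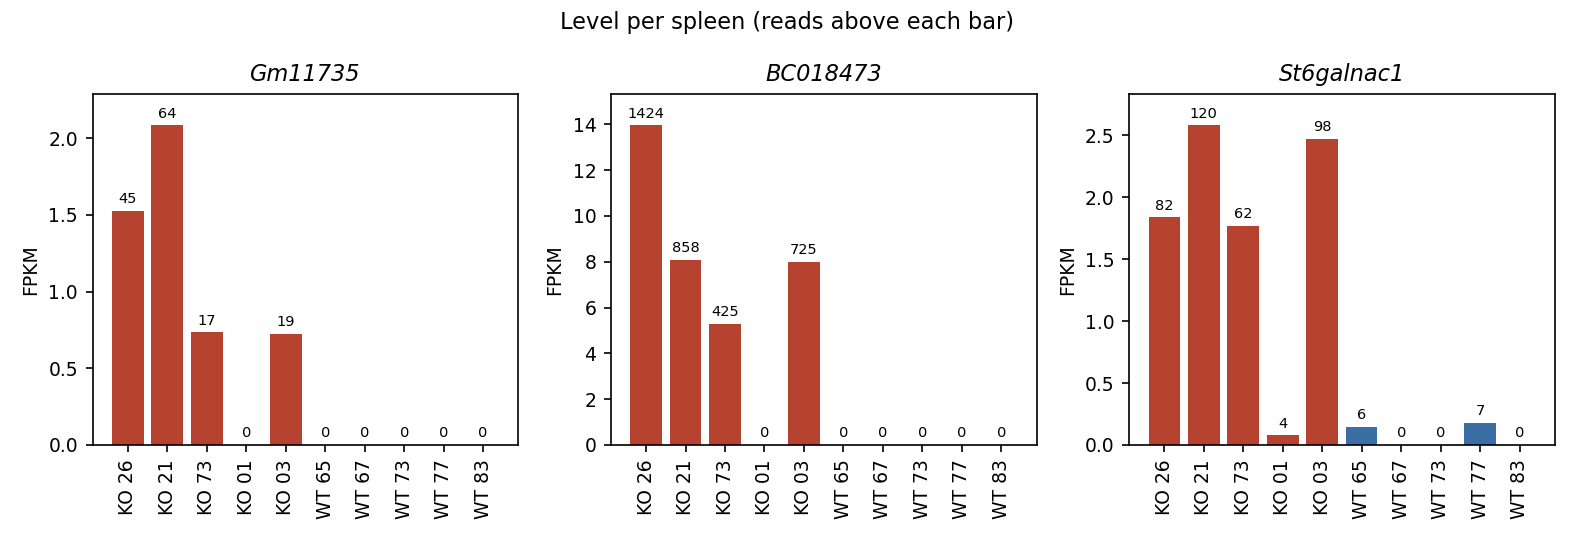
Level in FPKM of Gm11735, BC018473 and St6galnac1 in each of 5 KO (red) and 5 WT (blue) spleens, with the number of reads above each bar. KO replicates 26, 21, 73 and 03 carry the signal of all 3 genes, and KO replicate 01 has 0, 0 and 4 reads, like the WT spleens.

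The 4 expressing spleens did not rank alike for the 3 genes. BC018473 was highest in KO replicate 26, and the other members were highest in KO replicate 21. The ratio of BC018473 to St6galnac1 in FPKM was 7.59 in replicate 26 and 3.13, 3.0 and 3.23 in replicates 21, 73 and 03. Of the reads assigned to St6galnac1 or Gm11735, Gm11735 took 35.4% in replicate 26 (exact 95% binomial interval 27.2 to 44.4%) and 34.8% in replicate 21 (27.9 to 42.1%). It took 21.5% in replicate 73 (13.1 to 32.2%) and 16.2% in replicate 03 (10.1 to 24.2%), so the interval of replicate 03 lay below those of replicates 26 and 21. These intervals cover counting error only. Total reads, 17875943, 17298955, 15434643 and 14990474 in replicates 26, 21, 73 and 03, ran in the same order as the Gm11735 share. The depths by which the deposited FPKM are scaled, 18659410, 19442306, 14652374 and 16588943, did not, and the part of depth in the share was not tested.

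Goblet cells are where St6galnac1 is best known, and 14 epithelial and goblet cell markers were read beside the run. Of these, 7 were tested, and all 7 had a negative log2 difference between KO and WT, with a median of -1.12. None passed the adjusted threshold, and 1 had an unadjusted p under 0.05, against 5.66% of all genes tested. This was the keratin gene Krt19, with a difference of -1.45 (unadjusted p = 0.043, adjusted p = 0.86 by limma). Cdh1, with the next lowest p, was at -0.42 (unadjusted p = 0.078, adjusted p = 0.94 by limma). The others included Krt8 at -1.38 and Zg16, a secretory granule gene of pancreas and goblet cells, at -2.20. Without WT replicate 67 Cdh1 was at -0.36, Krt8 at -0.81, Zg16 at -0.79 and Krt19 at -1.36 (unadjusted p = 0.082 by limma). Then 6 of the 7 differences were negative and the median was -0.79. In that fit 1 marker, Spink4, had an unadjusted p under 0.05 (0.045, adjusted p = 0.93 by limma). WT replicate 65, which also had pancreatic RNA, stayed in the fit, with Zg16 at 4.47 FPKM, the highest of the libraries left. No fit left out both WT replicates. Among the 7 markers under the minimum level for testing, Tff3 and Clca1 had 0 reads in every library, and Agr2 had 1 read in KO replicate 21, 3 reads in KO replicate 03 and 0 elsewhere. Fcgbp, which encodes a protein of goblet cell mucus, had at most 23 reads, with 0.0572 to 0.132 FPKM in KO, replicate 01 included, and 0.0056 to 0.0497 FPKM in WT. While Agr2 and Fcgbp had the higher mean in KO, Cldn4, Muc2 and Spdef had the lower. Their means were 0.0376, 0.0118 and 0 FPKM in KO and 0.136, 0.0180 and 0.0273 FPKM in WT, with at most 9, 6 and 6 reads. None of these differences was tested. The 14 markers summed to 4.49 to 7.27 FPKM in the KO libraries, with KO replicate 01 at 4.64. In the WT libraries they summed to 5.76 to 8.82 FPKM, apart from WT replicate 67 at 321 FPKM. Zg16 alone was at 312 FPKM in that library. Of the libraries with pancreatic RNA, WT replicate 67 had 0 reads of each gene of the run, and WT replicate 65 had 6 reads of St6galnac1 and 0 of the others. The part of these cell types in the levels of the run was not tested.

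The genes on both sides of the run were tested between the groups with limma, a linear model fitted to log2(FPKM + 0.1) over the 21296 genes whose mean FPKM reached 0.1. Within 500 kb there were 46 other genes in the table, and 29 were tested. None passed an adjusted p of 0.05, against 0.0704% of all genes tested (8 higher and 7 lower in KO). At an unadjusted p under 0.05, 3 of the 29 were higher in KO, against 559 (2.62%) of the 21296 genes tested. Lower in KO was 1 of the 29, against 646 of the 21296. The 3 higher were St6galnac2, Cygb and Prcd, all on the Gm11735 side, and the lower was Mettl23, on the St6galnac1 side. The median log2 difference over the 29 was 0.02, against -0.0046 over all genes tested.

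St6galnac2, 44.2 kb from the run, encodes a sialyltransferase of the same family that also acts on O-glycans. It was at 4.0, 4.72, 3.19, 1.58 and 4.19 FPKM in KO replicates 26, 21, 73, 01 and 03. The WT libraries had 2.13, 1.61, 1.58, 1.36 and 1.42 FPKM. The same 4 KO libraries lay above every WT library, and KO replicate 01 lay within the WT range. The log2 difference was 1.01 ± 0.27 (SE), with an unadjusted p of 0.0034 and an adjusted p of 0.46 by limma. Without KO replicate 01 the difference was 1.26 with an adjusted p of 0.027. A second row of the table with this symbol (ENSMUSG00000110170), a model that lies inside the first, differed by 0.38 (95% interval -0.72 to 1.48).

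Cygb, 84.7 kb from the run, encodes cytoglobin, a globin of fibroblasts and other stromal cells. It was at 12.4, 15.9, 10.3, 5.35 and 14.6 FPKM in the KO libraries and at 5.04, 5.89, 6.82, 5.44 and 4.98 FPKM in the WT libraries. Again 4 KO libraries lay above all WT libraries and replicate 01 within them. The log2 difference was 0.96 ± 0.26 (SE; unadjusted p = 0.0036, adjusted p = 0.47 by limma), and without KO replicate 01 it was 1.21 with an adjusted p of 0.016. Leaving out this library removes the sample that went against its group, so these 2 adjusted p-values describe the remaining 9 libraries and are no independent result. The share of all tested genes that divide the libraries as St6galnac2 and Cygb do was not counted.

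Between Cygb and St6galnac2 lie Prcd and 1810032O08Rik. Prcd, a gene known from photoreceptors, was at 0.140, 0.536, 0.311, 0.181 and 0.314 FPKM in KO and at 0.152, 0.102, 0.0756, 0.0784 and 0.109 FPKM in WT, so KO replicate 26 lay within the WT range and replicate 01 above it. Its log2 difference was 0.89 ± 0.32 (unadjusted p = 0.019, adjusted p = 0.76 by limma). Prcd overlaps Cygb by 780 bases on the other strand, and since the strand setting of the counting is not stated, its reads cannot be told apart from those of Cygb there. 1810032O08Rik differed by 0.19 (95% interval -0.24 to 0.61), although it overlaps St6galnac2 by 497 bases.

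The genes that follow St6galnac1 showed no such levels. Mxra7, 27.6 kb away and the nearest tested gene, was at 3.68 to 5.98 FPKM in KO and 3.50 to 5.16 FPKM in WT, a log2 difference of 0.03 (95% interval -0.32 to 0.38). Jmjd6, which encodes a hydroxylase of lysine residues, differed by 0.03 (-0.18 to 0.23). The splicing factor Srsf2 differed by 0.09 (-0.19 to 0.36) and Mfsd11 by -0.05 (-0.33 to 0.23). Mettl23, a methyltransferase gene, was at 8.22 to 11.8 FPKM in KO and 10.9 to 16.5 FPKM in WT, ranges that overlap. Its log2 difference was -0.49 ± 0.14 (unadjusted p = 0.0049, adjusted p = 0.54 by limma). KO replicate 01, at 11.2 FPKM, was not the highest of the KO libraries. Mettl23 overlaps Srsf2, Jmjd6 and Mfsd11.

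**Figure D3:**
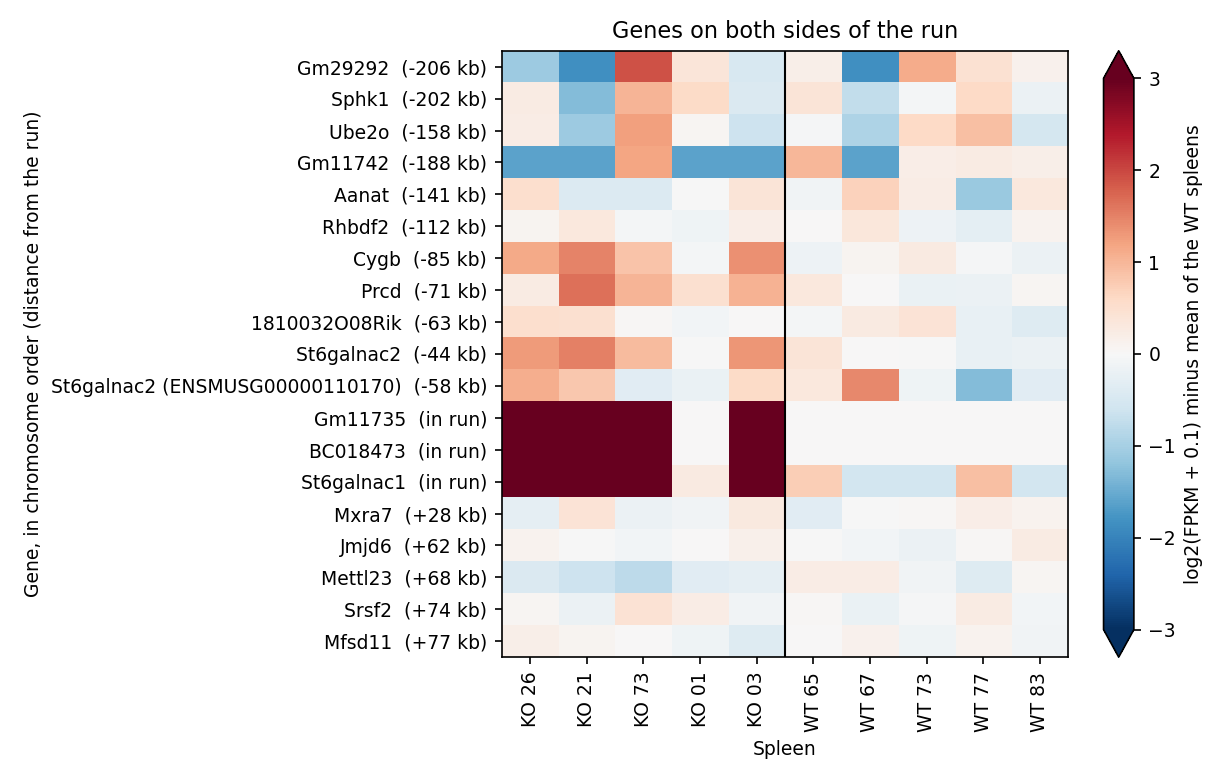
Each row is a tested gene in chromosome order with its distance from the run in kb, each column a spleen, and the colour is log2(FPKM + 0.1) minus the mean of the 5 WT spleens, capped at 3 in both directions. The 3 genes of the run are dark red in KO replicates 26, 21, 73 and 03, St6galnac2 and Cygb are paler red in the same 4 columns, and Mxra7 to Mfsd11 are near white.

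**Figure D4:**
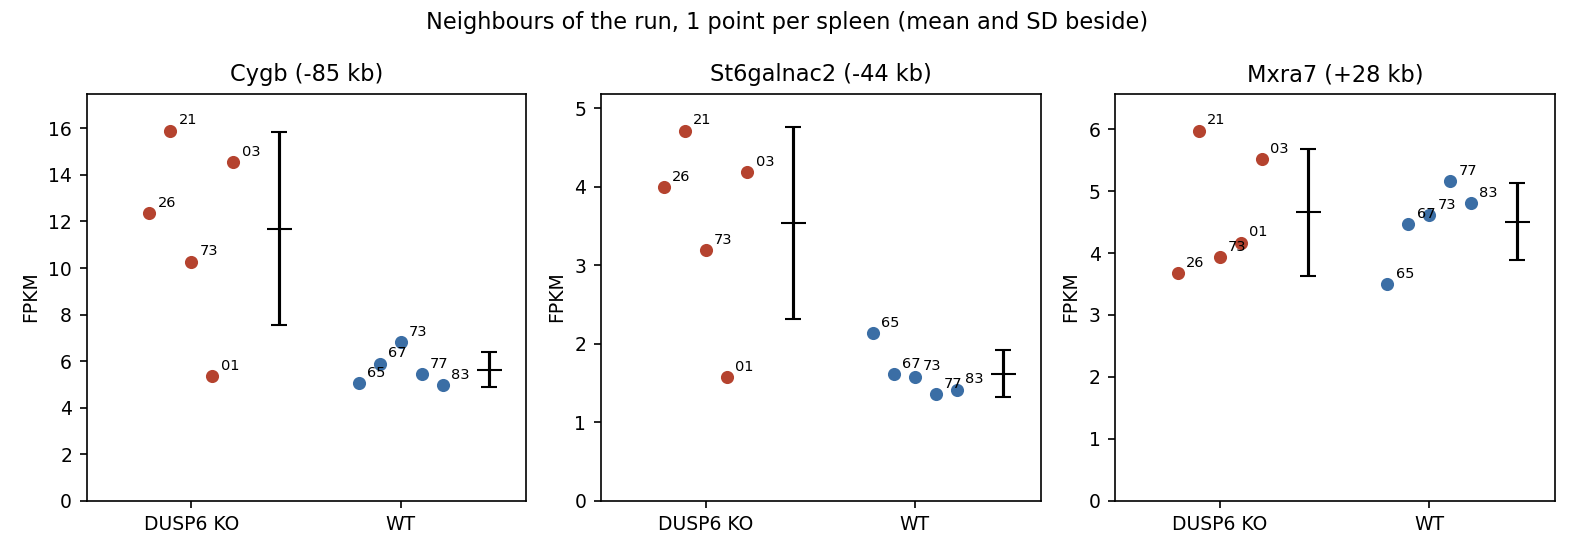
FPKM of Cygb, St6galnac2 and Mxra7, with 1 point per spleen labelled by replicate number and the mean with its SD (n = 5) beside each group. KO replicate 01 lies among the WT spleens for Cygb and St6galnac2, whereas the 4 other KO spleens overlap the WT range only for Mxra7.

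Likeness to the run was measured as Pearson's r, over the 10 libraries, between a gene's log2(FPKM + 0.1) and the mean of the 3 members on that scale. Since the members have only high and near-absent libraries, r mostly measures how well a gene divides the same 4 libraries from the other 6, and the points share libraries and genotype. St6galnac2 was the highest of all tested genes, at 0.966, and Cygb the next, at 0.955. With each library left out in turn, r stayed between 0.958 and 0.982 for St6galnac2 and between 0.946 and 0.973 for Cygb. By Spearman's rho both were at 0.742, rank 101. This measure also counts the order among the near-absent libraries, which are tied or ordered by a few reads. The cause of the lower rank was not tested. The median r was -0.02 over all tested genes and 0.09 over the 29 within 500 kb.

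The 3 genes next in r lie on other chromosomes. Gm25235 (r = 0.933), a small nuclear RNA gene on chromosome 1 with at most 5 reads in any library, was at 2.00, 0.481, 3.19, 0 and 1.69 FPKM in the KO libraries and at 0 in the WT libraries. Its fitted log2 difference, 3.23, depends on the pseudocount since the WT libraries hold no read. Bend6 (r = 0.896), also on chromosome 1, was at 1.46, 2.03, 1.12, 0.890 and 2.01 FPKM in KO and at 0.462 to 0.766 FPKM in WT, so here replicate 01 lay above the WT range. Gm3436 (r = 0.887), on chromosome 9, was at 0.110 to 0.490 FPKM in KO and 0.125 to 0.199 FPKM in WT.

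Cd300ld4, of the CD300 family of leukocyte receptors, ranked next (r = 0.885) and was singled out after its values were seen, since it lies on chromosome 11, 1712 kb from the run. It was at 2.45, 3.14, 2.16, 0.379 and 1.06 FPKM in the KO libraries and at 0, 0, 0, 0.141 and 0.458 FPKM in the WT libraries. Replicate 01 again lay within the WT range. Its log2 difference was 3.25 ± 0.64 (SE) and depends on the pseudocount, since 3 WT libraries hold no read. The paper, which tested counts of these spleens with DESeq2, lists Cd300ld4 among its most significant genes that were higher in KO. How reads are shared with other members of the CD300 family was not tested. Of the 20 genes with the highest r, 5 (25%) lie on chromosome 11, which holds 7.78% of the genes tested.

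**Figure D5:**
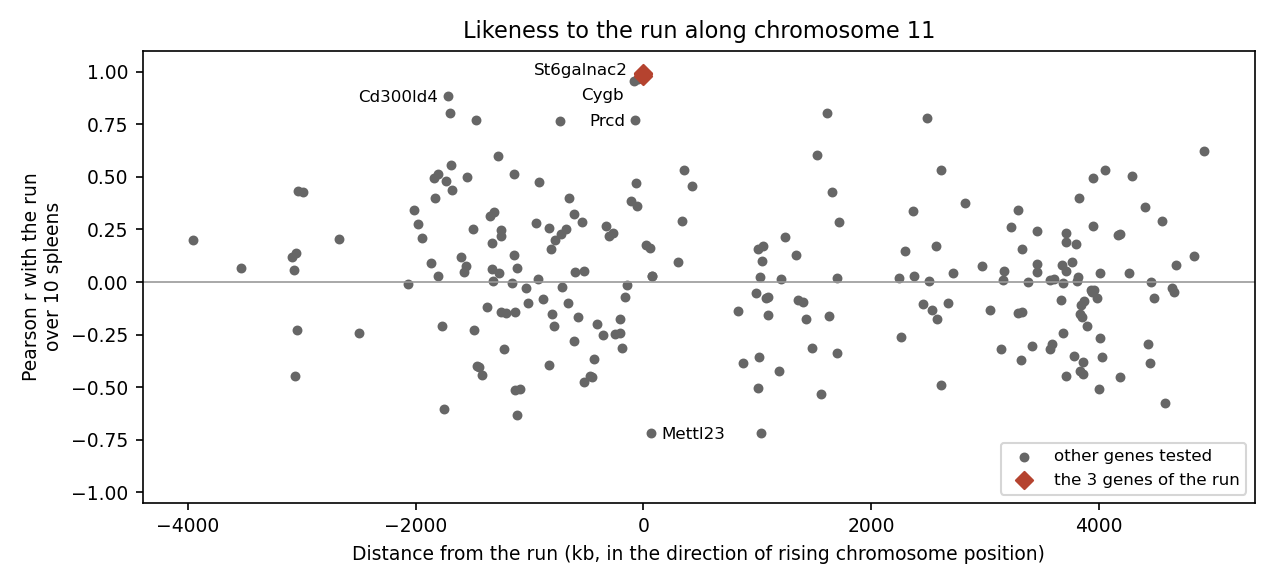
Pearson's r with the run over 10 spleens for each tested gene of chromosome 11 within 5000 kb, against its distance from the run in kb. St6galnac2 and Cygb stand beside the 3 genes of the run near r = 1, and Cd300ld4 is the highest of the genes beyond 500 kb, at 0.885.

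Few genes shared the exact pattern of presence, meaning more than 3 reads in KO replicates 26, 21, 73 and 03 and at most 3 reads in the other 6 libraries. Of 24938 genes above 3 reads in at least 1 library, 5 had it. They were BC018473, Gm11735, Traj30, Gm37569 and Mmp21, and the last 3 had at most 9, 9 and 7 reads in any library. St6galnac1 itself was left out of this count by its 4 to 7 reads in KO replicate 01 and WT replicates 65 and 77.

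The other sialyltransferases were counted next. Of 19 other genes of the family, 15 were tested, and St6gal2, St8sia2, St8sia3 and St8sia5 fell under the minimum of 0.1 FPKM. None of the 15 passed the adjusted threshold, and 2 had an unadjusted p under 0.05, against 5.66% of all genes tested. These were St6galnac2, given above, and St6galnac5, which makes a sialylated ganglioside and had a mean of 0.208 ± 0.0828 FPKM in KO spleens and 0.469 ± 0.110 FPKM in WT spleens (SD, n = 5 in each group). The log2 difference of St6galnac5 was -0.90 ± 0.26 (SE; unadjusted p = 0.0055, adjusted p = 0.56 by limma). The median over the 15 was 0.15.

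The remaining ST6GALNAC enzymes act on sialylated cores and gangliosides. St6galnac4 was at 7.76 FPKM in KO and 6.70 in WT and differed by 0.20 on the log2 scale (95% interval -0.04 to 0.45). St6galnac6 was at 4.67 and 3.95 FPKM and differed by 0.23 (-0.01 to 0.47). St6galnac3, at 0.823 and 1.01 FPKM, differed by -0.31 (-0.81 to 0.19). At its mean of 1.75 FPKM in KO, St6galnac1 thus exceeded St6galnac3 and St6galnac5 and was below St6galnac2, St6galnac4 and St6galnac6. In KO replicate 01 it was at 0.0772 FPKM, below St6galnac3 at 0.585 and St6galnac5 at 0.215. The uncertain split of reads with Gm11735 also bears on its place in this order.

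The most abundant sialyltransferases of the spleen were those that cap N-glycans, O-glycan cores and lipids. St3gal5, which makes the ganglioside GM3, had the highest mean, at 64.3 FPKM in KO and 49.0 in WT. It differed by 0.25 (95% interval -0.87 to 1.36). St6gal1, which caps N-glycans with the ligand of the B cell Siglec CD22, was at 33.4 and 37.6 FPKM and differed by -0.18 (-0.53 to 0.17). St3gal1, which caps the O-glycan core, was at 25.3 and 23.8 FPKM and differed by 0.09 (-0.12 to 0.31). St3gal2 differed by 0.24 (-0.43 to 0.91), St3gal4 by 0.16 (-0.17 to 0.49) and St3gal6 by 0.15 (-0.30 to 0.60). St3gal3, at 6.73 and 5.78 FPKM, differed by 0.22 (-0.0003 to 0.43; unadjusted p = 0.050 by limma). The polysialyltransferase St8sia4 differed by -0.18 (-0.55 to 0.19), St8sia1 by -0.19 (-0.57 to 0.20) and St8sia6 by -0.12 (-0.44 to 0.20).

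Genes that build the substrate of St6galnac1 were counted as a group. Of 27 genes of mucin-type O-glycan synthesis, 18 were tested, and 0 passed the adjusted threshold or an unadjusted p under 0.05, against 0.0704% and 5.66% of all genes tested. Their median log2 difference was -0.10. The lowest p-values belonged to Galnt15, of the family that starts O-glycans, with a difference of -0.41 (95% interval -0.92 to 0.10), and to C1galt1c1, the chaperone of the core 1 enzyme, with -0.14 (-0.45 to 0.16).

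Of 12 genes that supply or remove sialic acid, 10 were tested, with 0 at either threshold (0.0704% and 5.66% of all genes tested) and a median of -0.05. Cmah, which converts sialic acid to its glycolyl form, differed by -0.28 (95% interval -0.64 to 0.07), and the sialidase Neu3 by 0.32 (-0.14 to 0.77).

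Of 9 Siglec genes, all 9 were tested, 0 passed the adjusted threshold and 1 (against 5.66% of all genes tested) had an unadjusted p under 0.05, with a median of 0.14. This was Siglech, a marker of plasmacytoid dendritic cells, at 10.6 ± 1.49 FPKM in KO spleens and 8.41 ± 1.51 FPKM in WT spleens (SD, n = 5 in both; log2 difference 0.34, unadjusted p = 0.029, adjusted p = 0.80 by limma). Siglec1, the sialoadhesin of marginal macrophages, differed by 0.54 (95% interval -0.0037 to 1.08).

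Of 17 genes of proteins that carry O-glycans, 10 were tested. None passed the adjusted threshold, 1 had an unadjusted p under 0.05, against 5.66% of all genes tested, and the median was -0.01. Muc1, a mucin of epithelial surfaces, was at 0.0457, 0.197, 0.145, 0.138 and 0.154 FPKM in KO and at 0.573, 2.32, 0.544, 0.179 and 0.357 FPKM in WT, with the highest value in WT replicate 67. Its log2 difference was -1.54 ± 0.51 (SE; unadjusted p = 0.012, adjusted p = 0.71 by limma). The KO and WT values overlap in WT replicate 77. Without WT replicate 67, the library with the epithelial and pancreatic signal, the difference was -1.08 (adjusted p = 0.73 by limma). WT replicate 65, which had a weaker pancreatic signal and Muc1 at 0.573 FPKM, stayed in that fit. Muc13 differed by -0.42 (95% interval -1.0 to 0.16). Muc2, Muc5ac, Muc5b and Muc6, the secreted mucins of the list, were not tested, at no more than 25 reads in any library.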

How the data were processed

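Spleen RNA of 5 DUSP6 KO and 5 WT mice was sequenced from poly-A libraries as paired-end reads, with 1 library per mouse. Per the study's methods and notes, alignment was by Hisat2 and counting by featureCounts 1.5.0-p3, and the authors deposited FPKM values for 54532 genes. The strand setting is not given in the sources used here. The notes list a human build, but the positions are those of the mouse: 53499 of the 54409 genes found in GENCODE M21 (GRCm38) had identical positions, the 3 genes of the run included. Reads were recovered by multiplying each FPKM by the gene's length and dividing by the smallest step seen in that library, which gave whole reads for 100% of values (tolerance 0.001 read).

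The 3 genes and all gene lists were chosen with earlier results of these data known. The members have no test. Other genes were tested with limma 3.58.1 in R 4.3.3 (lmFit, then eBayes with a trend) on log2(FPKM + 0.1). The study's own test, DESeq2 on counts, was not repeated, so the calls here can differ from those of the paper. Genes whose mean FPKM reached 0.1 entered the fit, and p-values were adjusted by Benjamini-Hochberg over all 21296 of them, with 0.05 as the threshold. A level of 3 reads was the limit of detection. The labels name 5 different spleens per group, and p-values measure the spread between these mice. Genes named were the 3 members, the 5 nearest tested genes on each side, Dusp6 and all sialyltransferases. Also named were the 2 genes of lowest p in each list of O-glycan synthesis, sialic acid supply and removal, Siglecs and O-glycan carriers. Further ones were genes within 500 kb with an unadjusted p under 0.05, the 5 of highest r, and those of the same presence pattern. Other genes were named outside this rule, among them Cd300ld4 and the epithelial and goblet cell markers. Transcripts were compared with blastn 2.17.0 and by ungapped alignment to GENCODE M21, the source of the printed sequences. Tables and figures were made with Python 3.11.15, pandas 2.3.3, scipy 1.17.1 and matplotlib 3.10.9, and the test was first tried on simulated data. The settings varied were the pseudocount (1 or 0.01), the filter (a mean of 1 FPKM, or none), the trend in eBayes, quantile normalization, a rescaling that leaves out mitochondrial, haemoglobin, T cell receptor and immunoglobulin genes, limma's voom on recovered reads, windows of 250 and 1000 kb, a limit of 10 reads, Spearman's rho, and leaving out each library. Leaving out libraries for r, and WT replicate 67 for the epithelial markers, was chosen after seeing the data.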

Additional observations from a re-analysis of the deposited data

Results flagged for a closer look

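In 3 of 77 groups of 5 values examined, 1 spleen lay far from the other 4 (Dixon's test, critical value 0.71), and chance gives about 1 in 20. St8sia1 was at 1.22 FPKM in DUSP6 KO replicate 73 and at 1.71 to 1.80 FPKM in the other KO spleens, a gap of 0.850 of the range. Muc1 was at 2.32 FPKM in WT replicate 67, the spleen with pancreatic and epithelial RNA, and at 0.179 to 0.573 FPKM in the other WT spleens (gap 0.816). Gm3436 was at 0.199 FPKM in WT replicate 83 and at 0.125 to 0.143 FPKM in the others (gap 0.752). On FPKM, the scale of this test, none of the 3 genes of the run met the criterion in either group, although KO replicate 01 had 0 or 4 reads of each. Values of log2(FPKM + 0.1) were not examined in this way.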

How the results depend on the processing

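No paired analysis was possible because the groups share only the replicate number 73. With a limit of 10 reads in place of 3, the libraries with St6galnac1 went from 5 to 4 in KO and from 2 to 0 in WT, while BC018473 and Gm11735 stayed at 4 KO libraries and 0 WT libraries. The log2 difference of St6galnac1, 3.20 with a pseudocount of 0.1, was 1.26 with a pseudocount of 1 and 5.18 with 0.01, that of Gm11735, 2.91, was 0.91 and 5.48, and that of BC018473, 5.12, was 2.58 and 7.76. With each library left out, KO means ranged from 5.34 to 8.83 FPKM for BC018473, 1.54 to 2.16 for St6galnac1 and 0.746 to 1.27 for Gm11735. Of the 5 genes with the highest r, 3 were shared with a pseudocount of 1 and 0 with Spearman's rho.

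With libraries left out in turn, calls over all genes ranged from 6 to 21 higher and from 4 to 13 lower (both highest without KO replicate 21, and the count of lower genes lowest without WT replicate 83), calls within 500 kb from 0 to 2 and among sialyltransferases from 0 to 1 (both highest without KO replicate 01). Counts at an unadjusted p under 0.05 ranged from 2 to 4 for sialyltransferases, 0 to 1 for O-glycan synthesis, 0 to 2 for sialic acid supply and removal, 0 to 2 for Siglecs and 1 to 2 for O-glycan carriers. A minimum mean of 1 FPKM gave 4 lower genes in all and 0 O-glycan carriers, quantile normalization 4 sialyltransferases, voom 1 O-glycan synthesis gene and 0 Siglecs, and no filter 1 O-glycan synthesis gene. The cause was not tested.

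With single libraries left out, 5 small log2 differences took either sign: Mxra7 from -0.064 to 0.11, Jmjd6 from -0.016 to 0.088, Srsf2 from -0.0010 to 0.15, Mfsd11 from -0.11 to 0.036, and St3gal5 from -0.10 to 0.61. The differences of 7 genes at low level were smallest with a pseudocount of 1. Over all settings Prcd ran from 0.22 to 1.32, St6galnac5 from -1.19 to -0.28, Muc1 from -2.09 to -0.56, Cd300ld4 from 1.25 to 5.31, Gm25235 from 1.13 to 5.80, Gm3436 from 0.18 to 0.84 and Bend6 from 0.62 to 1.29. St6galnac2 and Cygb passed the threshold only without KO replicate 01. Under all other settings the adjusted p of St6galnac2 and Cygb stayed above 0.05, to at most 0.78.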
